A study of Mus musculus with 6 samples.

Results

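The genes described here encode the histones and their variants, the proteins that package DNA into nucleosomes. They were taken as all gene probes whose name in the array files begins with Hist and a cluster number, or with H2af, H3f or H1f, together with Hils1. This rule gave 53 of the 27376 gene names on the array, read by 72 of its 41174 probes. By name they were sorted into 7 probes of 6 testis variants, 23 probes of 12 replacement variants and 42 probes of 35 replication-dependent histone genes. Testis RNA of 3 wild-type (WT) mice and 3 mice lacking Prss54 (Prss54KO), a gene of the serine protease family, was compared on 1-colour Agilent arrays, with 1 array per mouse. All 6 animals were male mice aged 6 to 8 weeks on a mixed 129Sv/C57BL/6 background, and the only difference the labels give between the groups is the Prss54 genotype. The sources used here do not name the allele or the deleted part of the gene.

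Dividing cells make most of their histone mRNA in S phase from clustered, intronless genes, whose transcripts end in a conserved stem-loop in place of a poly(A) tail. Replacement variants such as H3.3, H2A.Z and H2A.X are made throughout the cell cycle from genes outside those clusters, mostly as polyadenylated mRNA. Male germ cells add a further set of testis variants during meiosis and after it, and in elongating spermatids nearly all histones give way to transition proteins and then to protamines.

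The Prss54 probe, which checks the labels if it lies within the disrupted part, gave signals of 22677, 24152 and 26120 intensity units in the WT mice and 7381, 9466 and 8416 in the Prss54KO mice. The groups did not overlap. The difference, Prss54KO minus WT, was -1.56 on the log2 scale (SE 0.1, n = 3 per genotype, limma adjusted p = 0.108 over all probes), and the Prss54KO mean was 34.6% of the WT mean. Median signals of the 6 arrays lay between 203.1 and 219.7 intensity units, and 0 gene spots were saturated. The labels do not say whether any mice were littermates, so p-values measure the spread between these animals, and 3 arrays per genotype limit the precision.

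Many histone genes are nearly identical, so the probes themselves show which values are separate measurements. Each probe is a 60-base sequence, given 5′ to 3′ as in the array files, and the capitals mark the longest run of bases it shares with the histone probe named beside it. The first set is shown because a testis variant and a replication-dependent gene have almost the same probe. Hist1h2aa is the gene of the testis H2A (TH2A), Hist1h2af encodes a replication-dependent H2A, and H2afj encodes the variant H2A.J. The capitals are the run shared by Hist1h2aa and Hist1h2af and, in H2afj, the run it shares with Hist1h2aa.
Hist1h2aa: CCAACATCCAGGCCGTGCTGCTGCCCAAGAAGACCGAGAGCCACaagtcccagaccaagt
Hist1h2af: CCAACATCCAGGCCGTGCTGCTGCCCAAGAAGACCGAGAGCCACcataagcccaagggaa
H2afj: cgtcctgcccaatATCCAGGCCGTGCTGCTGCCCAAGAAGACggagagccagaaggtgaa
The Hist1h2aa and Hist1h2af probes shared a run of 44 bases and were identical at 47 of 60 positions, and the H2afj probe shared a run of 29 bases with Hist1h2aa. In the mm9 build of the file headers, the Hist1h2aa probe lies at chr13:24026659-24026718 (plus strand), the Hist1h2af probe at chr13:23626108-23626167 (plus strand) and the H2afj probe at chr6:136757181-136757240 (plus strand). Whether RNA of one gene bound the other's probe was not tested.

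The H2B probes fall into 2 kinds, which is why the next set is shown. Hist1h2ba encodes the testis H2B (TH2B), Hist1h2bk and Hist1h2bm encode replication-dependent H2B, and Hist3h2bb-ps is named as a pseudogene. The capitals mark the run shared with the printed Hist1h2bk probe and, in that probe itself, the run shared with Hist1h2bm.
Hist1h2ba: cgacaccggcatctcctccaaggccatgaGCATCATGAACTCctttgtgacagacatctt
Hist1h2bk: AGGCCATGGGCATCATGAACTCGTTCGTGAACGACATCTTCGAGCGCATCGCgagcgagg
Hist1h2bm: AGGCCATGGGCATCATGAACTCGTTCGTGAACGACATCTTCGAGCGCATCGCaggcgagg
Hist3h2bb-ps: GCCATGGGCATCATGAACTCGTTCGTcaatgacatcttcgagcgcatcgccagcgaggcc
The Hist1h2bk and Hist1h2bm probes were identical at 58 of 60 positions, with a shared run of 52 bases, and Hist3h2bb-ps shared a run of 26 bases with Hist1h2bk. The TH2B probe shared a run of 13 bases with this Hist1h2bk probe, and its longest run with any histone probe was 14 bases, with the other Hist1h2bk probe. The mm9 positions are chr13:24025811-24025870 (minus strand) for Hist1h2ba, chr13:22127928-22127987 (plus strand) for Hist1h2bk, chr13:21814139-21814198 (plus strand) for Hist1h2bm and chr11:58767697-58767756 (minus strand) for Hist3h2bb-ps.

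The same holds for histone H4, whose genes encode the same protein. The Hist1h4f probe (mm9 chr13:23643249-23643308, minus strand) and one Hist1h4d probe (chr13:23673665-23673724, plus strand) overlap in 50 bases, in capitals.
Hist1h4f: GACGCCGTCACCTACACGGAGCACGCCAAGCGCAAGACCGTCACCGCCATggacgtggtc
Hist1h4d: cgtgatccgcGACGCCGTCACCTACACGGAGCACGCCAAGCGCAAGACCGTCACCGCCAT
In all, 15 of the 72 probes shared a run of at least 20 bases with a probe of another histone gene, and the accessions listed for 17 probes belonged to more than 1 RefSeq gene, at most 4. Another 48 probes listed 1 RefSeq gene and 7 listed none. Values of the replication-dependent genes are therefore values of probes, and which gene of a near-identical group supplied the RNA is uncertain.

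By position, 34 of the 72 probes lie on mouse chromosome 13, where the Hist1 cluster is, 8 on chromosome 3 and 10 on chromosome 11, and 2 have no position in the files. Not all of the 34 are in that cluster. The probes of H2afy (from base 56184528) and of Hist1h2al (from base 51295494) lie apart from the rest. Hist1h2aa and Hist1h2ba are neighbours on chromosome 13, on opposite strands. In the RefSeq promoter table (GRCm38.p6, 300 bases around each gene's start, most of them upstream), the CCAAT letters, searched on both strands, occurred in 25 of 27 promoters of replication-dependent genes, in 7 of 10 of replacement variants and in 4 of 6 of testis variants. They occurred in 37.4% of all 32851 promoters. TATAAA occurred in 16 of 27, 1 of 10 and 2 of 6 promoters, against 13.6% of all. ATTTGCAT, the letters of the octamer known from H2B promoters, occurred in 8 of 27, 1 of 10 and 2 of 6, against 1.7% of all. None of these 3 motifs contains another, and a match is a description of the letters only. CTTTTCAG, part of the histone stem-loop, searched on the strand of the probe sequence, was present in 2 of the 72 probes, those of Hist1h2ae and Hist1h3a, and in 0.202% of all probes on the array.

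The testis variants were bright on every array. All 7 probes were well above background in all 6 mice, with mean signals from 6110 to 202720 intensity units. The 21 tested probes of replacement variants ranged from 71.4 to 136827 and the 36 tested probes of replication-dependent genes from 42.4 to 129086. How bright a probe is depends on its sequence as well as on its RNA, so these ranges give no order between genes or between the 3 classes.

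**Figure D1:**
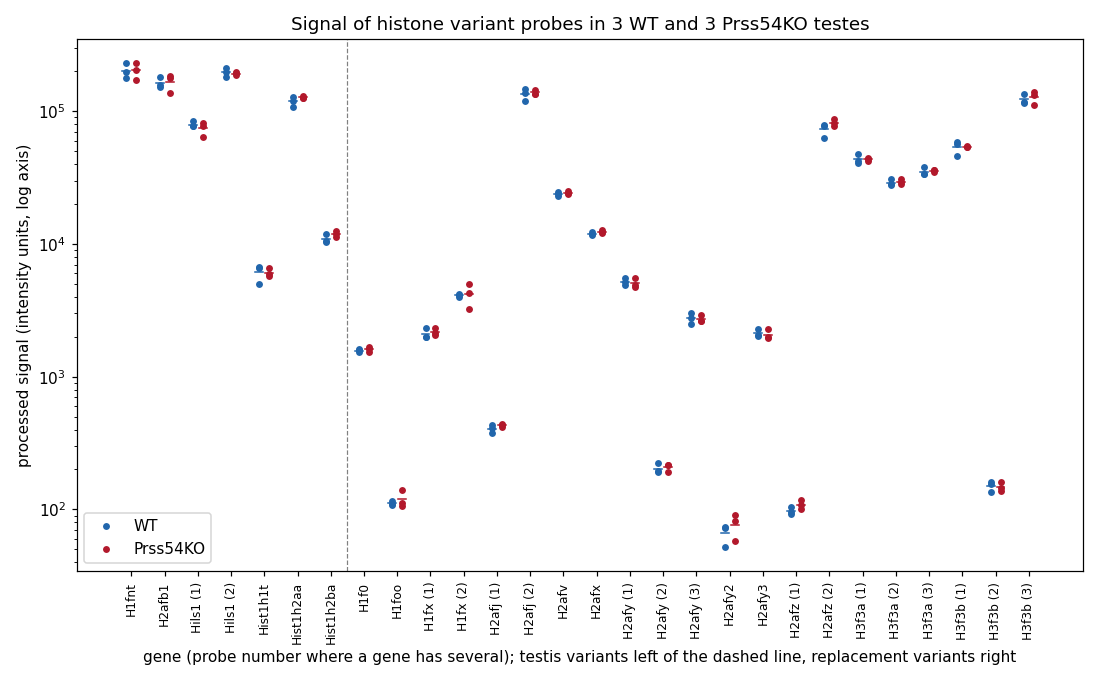
Processed signal (intensity units, log axis) of each tested probe of the testis variants, left of the dashed line, and of the replacement variants, right of it. Each point is 1 mouse, 3 WT in blue and 3 Prss54KO in red, and the short bars are genotype means; the 2 genotypes lie close together at each probe, while the probe means span 71.4 to 202720 intensity units.

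Detection of the replication-dependent genes differed with the place of the probe on its transcript. Of 33 probes that start before base 1000 of the transcript the files name, 32 were well above background on at least 3 arrays, and the exception was Hist1h2ae at base 541. Of 9 probes that start at base 1000 or later, 4 were, and the other 5 were well above background on 0 arrays. Hist4h4 and Hist1h1d, an H4 gene and a gene of linker histone H1, show this within 1 gene. The Hist4h4 probe at base 176 was well above background on 6 arrays and that at base 1788 on 0, and for Hist1h1d the probe at base 551 was above on 4 arrays and that at base 2302 on 0. H1f0, the replacement linker histone H1.0, was similar, with the probe at base 1015 above background on 6 arrays and those at bases 1288 and 1294 on 0. The probes compared also differ in base composition. G and C make up 60% and 23.3% of the Hist4h4 probes and 55% and 35% of those of Hist1h1d. For H1f0 the shares are 55%, 35% and 35%. Hist1h2ae has 35% too, as does the Hist1h1c probe at base 1342, which was above background on 6 arrays. Position and base composition cannot be told apart within these genes, and neither was tested. The labels name a low-input Cy3 labelling kit and 0.5 ug of RNA but not how the RNA was primed, and the part of priming in these values was not tested.

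**Figure D2:**
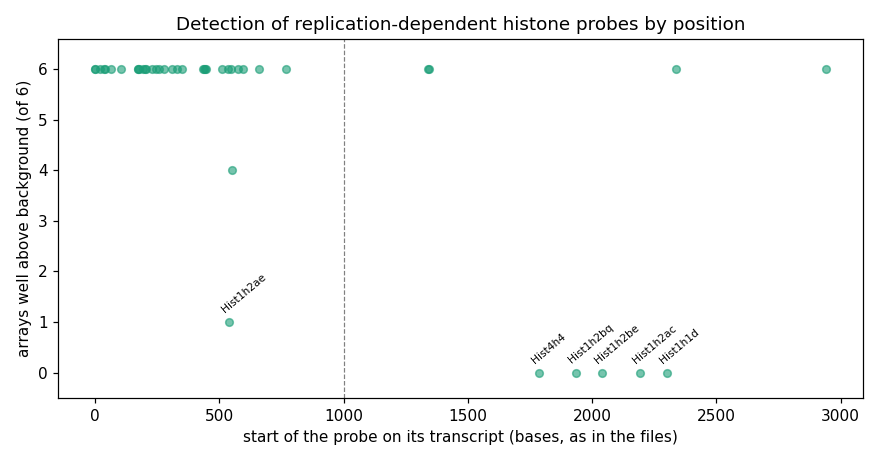
Number of arrays, of 6, on which each of the 42 replication-dependent histone probes was well above background, against the base of the named transcript at which the probe starts. The dashed line is base 1000, and names mark the 6 probes above background on fewer than 3 arrays: 1 of the 33 probes left of the line and 5 of the 9 right of it.

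No histone probe differed between the genotypes by more than the spread between mice allows to be called. Of the 64 member probes tested (49 genes, 63 of the probes above background on all 6 arrays), 0 had a limma adjusted p under 0.05, as did 0 of all 28913 probes tested (0.00%). At an unadjusted p under 0.05 the count was 0 of 64, against 926 of all probes (3.20%). The 3 WT and 3 Prss54KO levels did not overlap in 1 member, Hist1h2aa, which was higher in Prss54KO. Over all probes they did not overlap in 7.81%, with Prss54KO the higher in 4.21%. The other 8 member probes, 2 of H1f0 and those of Hist1h1d (base 2302), Hist1h2ac, Hist1h2ae, Hist1h2be, Hist1h2bq and Hist4h4 (base 1788), were too dim to be tested.

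The differences themselves were small. They ran from -0.13 to 0.17 on the log2 scale, so all 64 lay within 0.2 of 0, as did 89.6% of all probes. The median size of the difference was 0.034 in the members and 0.058 over all probes, and the median spread within a genotype (SD) was 0.096 against 0.105. The median difference was 0.01 in both. All 64 intervals (95%, limma) included 0, and together they reached from -0.53, for Hist1h1d, to 0.71, for H2afy2, both dim probes. Fewer cells of a type and less RNA per cell cannot be told apart in whole testis.

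**Figure D3:**
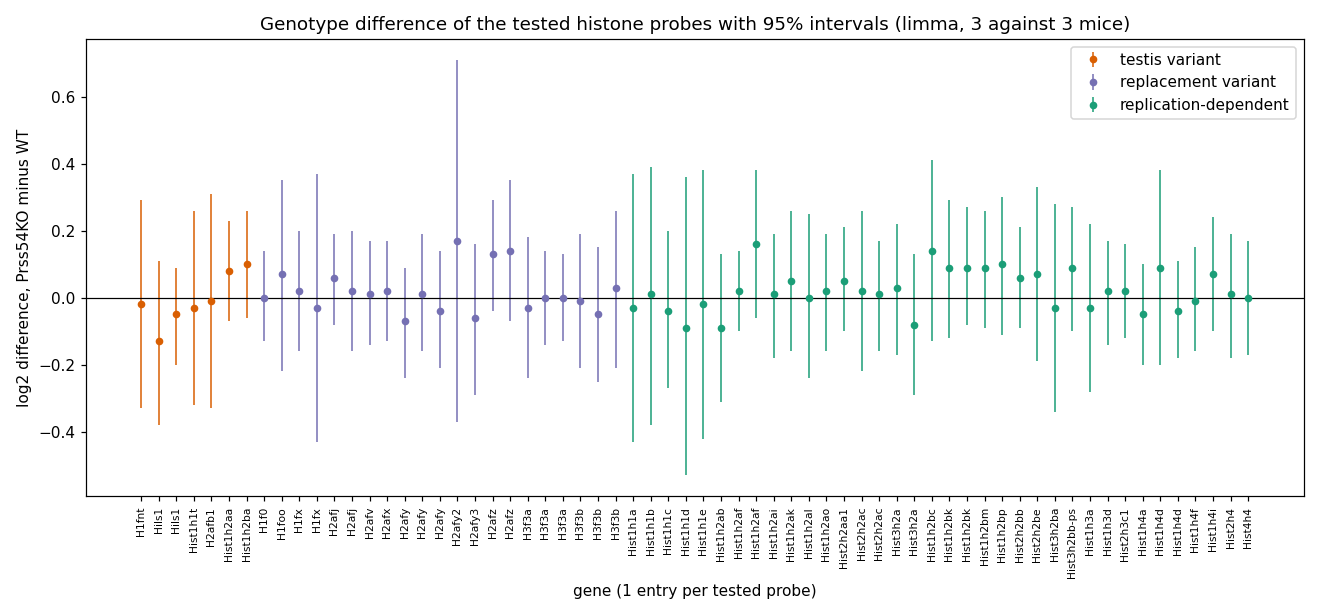
Log2 difference, Prss54KO minus WT, of the 64 tested histone probes with 95% intervals from limma (3 mice per genotype), coloured by class, 1 entry per probe. Every interval crosses 0, and the points lie between -0.13 and 0.17.

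Among the testis variants, the TH2A and TH2B probes had small positive differences and the other 5 probes small negative ones. Hist1h2aa (TH2A), which RefSeq now calls H2ac1, gave 120388, 107541 and 128095 intensity units in WT and 126382, 129868 and 126541 in Prss54KO. WT replicate 2 was lowest, and after scaling the lowest Prss54KO level lay above the highest WT level by 0.00062 on the log2 scale. The difference was 0.08 (SE 0.06, unadjusted p = 0.25 in limma). With quantile normalization, median scaling, normexp background correction or the authors' deposited log2 table the groups overlapped.

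Hist1h2ba (TH2B, now H2bc1), the H2B that replaces most somatic H2B in spermatocytes, gave 10600, 10277 and 11854 in WT and 11213, 12532 and 11996 in Prss54KO. The groups overlapped, with WT replicate 3 above Prss54KO replicate 1. The difference was 0.10 (SE 0.07, 95% interval -0.06 to 0.26), and within slide 2, the one slide that holds both genotypes, it was 0.04.

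Hils1, the linker-like histone of spermatids, has 2 probes. One gave 197802, 180142 and 211292 intensity units in WT and 197387, 194236 and 186883 in Prss54KO, with a difference of -0.05 (SE 0.06). The other gave 76909, 77113 and 84249 in WT and 77468, 81343 and 64227 in Prss54KO, with a difference of -0.13 (SE 0.1), the lowest of any member. Prss54KO replicate 3 was lowest on the scaled levels of both probes, and without it the second probe's difference was -0.02. Both probes had overlapping groups as scaled here. With quantile normalization, the Prss54KO levels of both probes lay below all WT levels. The same held in the authors' deposited table, which also has equal quantiles per array and so is not a separate check. The gaps were between 0.027 and 0.0702. With normexp only the first probe separated, by 0.00973, and with median scaling neither did. The share of all probes that separated is not given for these settings.

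The other linker variants did not separate by genotype. Hist1h1t (H1t, now H1f6), the linker histone of spermatocytes, gave 6773, 4977 and 6641 in WT and 6543, 5774 and 5923 in Prss54KO, a difference of -0.03 (SE 0.12). H1fnt (H1T2, now H1f7), found in the nuclei of round and elongating spermatids, gave 196765, 179480 and 229970 in WT and 231229, 206261 and 172618 in Prss54KO, a difference of -0.02 (SE 0.13). The lowest and the highest of those 6 H1fnt values were both in Prss54KO mice.

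The probe named H2afb1 carries an old name. Its accession belongs to H2al2a in RefSeq, a gene of the H2A.L variants that enter chromatin with the transition proteins, and 2 RefSeq genes are listed for it. It gave 158614, 152722 and 180085 intensity units in WT and 185785, 179503 and 136662 in Prss54KO, a difference of -0.01 (SE 0.13). Again the highest and the lowest values were both Prss54KO. The median difference over the 7 testis variant probes was -0.02, with 2 higher and 5 lower in Prss54KO. Without Prss54KO replicate 3 that median was 0.09.

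Of the replacement variants of H2A, H2afz had the largest difference in a bright probe. H2afz encodes H2A.Z, a variant placed at promoters, and its chromosome 3 probe gave 77454, 63321 and 79465 in WT and 78177, 82036 and 86872 in Prss54KO. WT replicate 2 was lowest, and on the scaled levels WT replicate 1 lay above Prss54KO replicate 1, so the groups overlapped. The difference was 0.14 (SE 0.09, 95% interval -0.07 to 0.35) and 0.06 without WT replicate 2. A second probe with that name gave a difference of 0.13 (SE 0.07) at 91.9 to 117.2 intensity units, but the files place it on chromosome 6 and its accession did not match RefSeq, so its gene is uncertain.

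The other H2A variants lay closer to 0. H2afv, the second H2A.Z gene, gave 22922, 24527 and 23645 in WT and 23742, 25052 and 24355 in Prss54KO, a difference of 0.01 (SE 0.06). H2afx, whose phosphorylated protein marks DNA breaks and the sex body of spermatocytes, gave 12385, 11619 and 11862 in WT and 12011, 12783 and 12238 in Prss54KO, a difference of 0.02 (SE 0.06). In both genes all 6 mice lay within 0.15 of each other on the log2 scale.

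The 2 H2afj probes had differences of 0.02 and 0.06. MacroH2A, the H2A variant with a large additional domain, is represented by 3 genes. The 3 probes of H2afy had differences of -0.07, 0.01 and -0.04, that of H2afy3 -0.06 (SE 0.09) and that of H2afy2 0.17 (SE 0.22). H2afy2 was dim, at 73.6, 72.9 and 52.4 intensity units in WT and 57.9, 81.4 and 90.4 in Prss54KO, with the lowest value in WT and the groups interleaved. Its difference, the highest of any member, was -0.02 without WT replicate 3, 0.36 without Prss54KO replicate 1 and 0.42 within slide 2.

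H3.3, the H3 variant that is laid down outside S phase, is encoded by H3f3a and H3f3b. Each gene has 3 probes, and the differences of the 6 probes ran from -0.05 to 0.03. The brightest H3f3b probe gave 118618, 115957 and 134742 in WT and 112508, 140900 and 131678 in Prss54KO, with the lowest and highest values in Prss54KO. For H3f3a, a probe with 33658, 33651 and 37868 in WT gave 35028, 36458 and 35946 in Prss54KO, a difference of 0.00 (95% interval -0.13 to 0.13).

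The replacement linker histones had differences of 0.00 for H1f0, 0.02 and -0.03 for the probes of H1fx (H1X) and 0.07 (SE 0.12) for H1foo, the oocyte linker histone. H1f0 gave 1587, 1529 and 1607 intensity units in WT and 1673, 1531 and 1625 in Prss54KO, which overlap. H1foo stood at 106 to 140.7 intensity units, well above background on all 6 arrays. The 21 replacement probes had a median difference of 0.01, with 14 higher and 7 lower.

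The replication-dependent genes had a median difference of 0.02, with 24 of 36 tested probes higher in Prss54KO and 12 lower. By core histone, 10 of 12 H2A probes, 8 of 9 H2B probes, 2 of 3 H3 probes and 3 of 7 H4 probes were higher, and 1 of 5 H1 probes. The H2A count depended on the setting. It was 8 of 12 with normexp, 6 with quantile normalization, 5 with median scaling and 3 within slide 2. The count over all members changed with the scaling. Of the 64 members, 40 were higher (62.5%, and 53.3% of all probes). The count was 26 with quantile normalization (40.6%, and 49.6% of all probes) and 24 with median scaling (37.5%, and 43.9% of all probes). Within slide 2 it was 27 (42.2%, and 49.5% of all probes). The share over all probes thus changed with the setting too.

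The H2B probes had the largest shift of the core histones, a median of 0.09. Hist1h2bk gave 22525, 23030 and 26795 in WT and 25569, 27646 and 25303 in Prss54KO with the probe printed above. WT replicate 3 lay among the Prss54KO mice and the other WT mice lay below them. The difference was 0.09 (SE 0.07, 95% interval -0.08 to 0.27).

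The near-identical Hist1h2bm probe gave 23166, 22287 and 26640 in WT and 25144, 27664 and 25192 in Prss54KO, also a difference of 0.09 (SE 0.07). Hist3h2bb-ps, Hist1h2bp and the second Hist1h2bk probe had differences of 0.09, 0.10 and 0.09. Apart from Hist1h2bp, these probes share sequence or RefSeq genes, so the 5 do not count as 5 separate measurements. The Hist1h2bp probe shared a run of at most 8 bases with a probe of another histone gene. It has no RefSeq match, so its gene is uncertain. Hist1h2bc is read by a probe that lists 1 RefSeq gene, which is also among those listed for the Hist1h2bm probe. It gave 1497, 1278 and 1580 in WT and 1494, 1516 and 1897 in Prss54KO, a difference of 0.14 (SE 0.11), with 1 Prss54KO mouse above the other 5.

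The direction of the H2B probes held under each scaling but not within the slide. At least 8 of the 9 were higher with quantile normalization, median scaling, normexp and the authors' deposited table. Within slide 2, with WT replicate 3 against Prss54KO replicates 1 and 2, 3 of 9 were higher and the median was -0.03.

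For H2A, the 2 Hist1h2af probes disagreed in size. That printed above gave 126829, 119679 and 134530 in WT and 128725, 132706 and 132047 in Prss54KO, a difference of 0.02 (SE 0.05). The other, at the start of the transcript and listing 4 RefSeq genes, gave 10373, 9335 and 9014 in WT and 10181, 11549 and 10972 in Prss54KO, a difference of 0.16 (SE 0.09), which was 0.30 within slide 2. On it WT replicate 1 lay above Prss54KO replicate 1, so the groups overlapped.

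Among other H2A genes, Hist1h2ab gave 3901, 3433 and 4070 in WT and 4012, 3615 and 3331 in Prss54KO, a difference of -0.09 (SE 0.09). Prss54KO replicate 3 was the lowest of the 6 mice there. The remaining H2A probes lay between -0.08, for one of the Hist3h2a probes, and 0.05, for Hist1h2ak and Hist2h2aa1.

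For H3, Hist1h3a gave 2125, 1960 and 2549 in WT and 2323, 2309 and 1973 in Prss54KO, a difference of -0.03 (SE 0.1), and Hist2h3c1 gave 113767, 105540 and 120946 against 112316, 120976 and 117928, a difference of 0.02 (SE 0.06). Both pairs of groups overlapped. Hist1h3d also had a difference of 0.02.

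For H4, Hist1h4a gave 14046, 13728 and 15217 in WT and 14439, 14608 and 13329 in Prss54KO, a difference of -0.05 (SE 0.06), and Hist1h4i had a difference of 0.07 (SE 0.07) at 357.7 to 425.1 intensity units. The 2 Hist1h4d probes differed in sign, at 0.09 (SE 0.12) and -0.04 (SE 0.06). The first of them, printed above, gave 26955, 24436 and 21001 in WT and 26962, 26300 and 25074 in Prss54KO, with WT replicate 3 lowest. With the slide as a fixed block its difference was 0.38. Since the other slides hold 1 genotype each, that value rests on WT replicate 3 alone against Prss54KO replicates 1 and 2. The Hist1h4f probe, which holds 50 of the same bases, had a difference of -0.01 (SE 0.06). Signs differed in 6 of the 12 genes with more than 1 tested probe.

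As a median, the replication-dependent linker histones varied more between mice than the members as a whole. Their median spread within a genotype was 0.238, against 0.096 over all members and 0.105 over all probes. The size of this varied: the 6 mice ranged over 0.3 for Hist1h1c, against a median range of 0.26 over all members. Among the other members they ranged over 0.8 for H2afy2. The genotype differences of these linker histones ran from -0.09 for Hist1h1d to 0.01 for Hist1h1b. Hist1h1e (H1.4) gave 587.5, 487.7 and 773.4 in WT and 703.4, 548.4 and 584.5 in Prss54KO, a difference of -0.02 (SE 0.16). The highest and the lowest of those 6 mice were both WT.

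Hist1h1a (H1.1) gave 1092, 815.9 and 1255 in WT and 1202, 1016 and 919.1 in Prss54KO, a difference of -0.03 (SE 0.16). WT replicate 2 was lowest and WT replicate 3 highest. Hist1h1c (H1.2) gave 1249, 1158 and 1306 in WT and 1416, 1140 and 1157 in Prss54KO, a difference of -0.04 (SE 0.1), with the highest and lowest values both in Prss54KO. Hist1h1d had a difference of -0.09 (SE 0.18) at 32.8 to 51.8 intensity units. It was well above background on 4 arrays only, 3 WT and 1 Prss54KO. It was therefore tested only because of the WT arrays, the genotype in which it was higher.

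**Figure D4:**
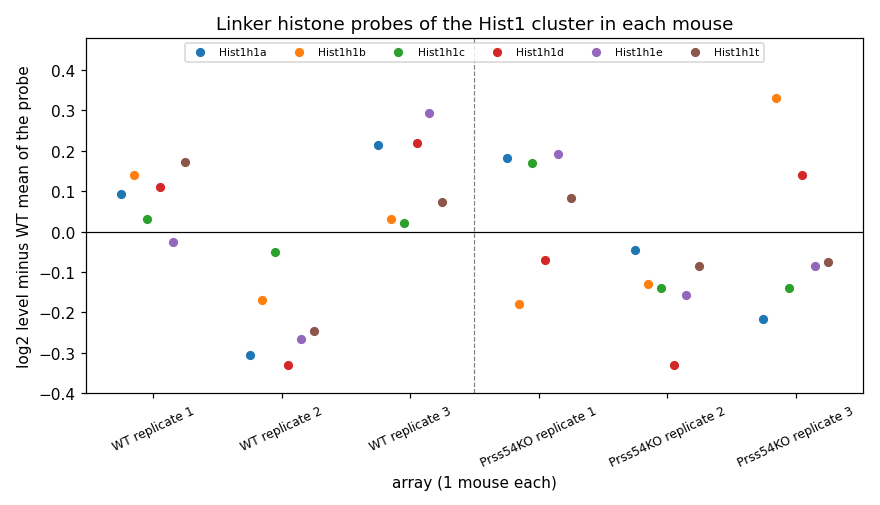
Log2 level of 6 linker histone probes of the Hist1 cluster in each of the 6 mice, minus the mean of the 3 WT mice for that probe. Colours are genes and the dashed line parts WT from Prss54KO; all 6 probes lie below 0 in WT replicate 2 and in Prss54KO replicate 2.

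Some mice were the lowest or the highest more often in the members than over all probes. WT replicate 2 was the lowest of the 6 mice in 24 of the 64 tested members (37.5%), and in 15.3% of all probes. Prss54KO replicate 2 was the highest in 21 (32.8%), and in 15.4% of all probes. These shifts were small. Against the WT mean, the members' median was -0.05 in WT replicate 2 and 0.05 in both Prss54KO replicate 2 and WT replicate 3. The median spread within a genotype was 0.096. Several members share sequence, so these are not counts of separate measurements. Without WT replicate 2 the median difference of the replication-dependent genes was -0.02. The levels of any pair of arrays correlated at 0.9941 to 0.9964 over probes, which are not independent replicates.

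Genes that act on histones gave no call either. Of 38 tested probes of 23 genes for histone mRNA transcription and 3′ end processing, 0 passed the threshold in limma and 0 had an unadjusted p under 0.05, and the median difference was 0.00. Eri1, the exonuclease that trims the histone mRNA 3′ end, had the lowest p of that list, with differences of -0.19 (SE 0.08) and -0.17 (SE 0.1) for its 2 probes. Of 74 probes of 42 histone chaperone and import genes, 0 passed and 1 had an unadjusted p under 0.05, with a median of 0.01. That probe was of Hjurp, the chaperone of the centromeric H3 CENP-A (0.25, SE 0.1, unadjusted p = 0.0454 in limma), and the next was Supt16, a subunit of the FACT chaperone, at -0.22 (SE 0.1).

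Of 55 probes of 26 genes for histone modification and removal in spermatids, 0 passed and 0 had an unadjusted p under 0.05, with a median of 0.00. The lowest p values there were those of Ube2a, a ubiquitin-conjugating enzyme (0.11, SE 0.06), and Psme4, the PA200 activator of the proteasome that degrades acetylated histones (0.09, SE 0.06). The proteins that take the place of histones gave 6 probes of 4 genes with a median of 0.03 and 0 past either limit. Prm1, a protamine, had a difference of 0.16 (SE 0.16) and Tnp1, a transition protein, 0.04 (SE 0.05).

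Over markers of proliferating and germ cells, the median differences were -0.03 over 29 S-phase and proliferation probes (21 lower, 8 higher), -0.04 over 16 spermatogonial, 0.02 over 21 spermatocyte and 0.03 over 28 round spermatid probes. For Sertoli cells the median was -0.00 over 14 probes, and for Leydig cells -0.06 over 14. Of the Leydig probes 10 were lower and 4 higher, and 5 lay beyond 0.2 from 0. Their differences ran from -1.08 to 0.34, with an SE of up to 0.74. The 2 probes of Star, which carries cholesterol into mitochondria for steroid synthesis, had the lowest p at -0.69 (SE 0.28) and -0.58 (SE 0.24). Markers of other cells that whole testis or its dissection can hold had medians of -0.44 over 8 red blood cell probes, -0.26 over 14 fibroblast and matrix probes (13 lower), -0.18 over 7 adipose probes, -0.06 over 14 leukocyte probes and 0.12 over 5 epididymis probes. None of these lists had a probe past the threshold in limma, and 5 probes had an unadjusted p under 0.05, 3 of them in the fibroblast list. Per array, the red blood cell median ran from -0.78 in WT replicate 2 to 0.76 in WT replicate 1 against the mean of the WT mice. The part of these cells in the histone values was not tested.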

How the data were processed

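The authors deposited 1 scanner file per array holding spot intensity (linear, not log), written by Agilent Feature Extraction 10.7.3.1 per the file headers (10.7 per the submitters' processing notes). The processed signal is the brightness after the software's own background treatment. A deposited table of the series holds log2 values with equal quantiles in each column, and was used only as an alternative input. Its software is not named in the sources used here. Probe positions are mm9 per the file headers, and no mm9 gene annotation was used here, so exon positions are not given.

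Levels are log2 of the processed signal less the log2 of each array's 75th percentile, with control and outlier-marked spots left out and spots of 1 probe averaged. A probe was tested if well above background on at least 3 of 6 arrays, and on an array it counted as above if at least 50% of its spots were. Genotypes were compared in limma 3.58.1 (R 4.3.3) by a two-sided moderated test, and p-values were adjusted by Benjamini-Hochberg over every tested probe, with a threshold of 0.05. The fit was tested on simulated data with shifts larger than any histone difference here, so that test does not bear on differences this small. Printed signals are unscaled, and SE and intervals are limma's.

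The 72 members, their classes and the gene lists were chosen with earlier results of these data known. The text gives every variant, the 2 replication-dependent probes per histone with the lowest unadjusted p, the 3 largest differences per direction and, per histone pathway list, the 2 probes with the lowest unadjusted p. Other members, such as the H1 genes, the H2B probes with shared sequence and Hist1h4d, were named after their values were seen. Of the 72 probes, 64 matched RefSeq (GRCm38.p6) by accession and 8 did not. Alternatives were the scaling, background correction, filter, probe choice, authors' table, slide, replicate block, array weights, variance model, outlier spots and each array left out.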

Additional observations from a re-analysis of the deposited data

How the results depend on the processing

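Under each of the 20 alternatives 0 histone probes passed the threshold in limma, and the lowest adjusted p of a member in any of them was 0.825. Over all probes the count was 1 with normexp, 1 with the filter on all 6 arrays, 1 with the slide as a fixed block and 2 with the trend and robust variance, against 0 otherwise. Prss54 itself had an adjusted p of 0.00516 with normexp (-1.54), 0.0486 with the filter on all 6 arrays (-1.56) and 0.00955 with the trend and robust variance (-1.56), so it passed there. Histone probes with separate genotypes numbered 1 as reported, 3 with quantile normalization, 0 with median scaling, 3 with normexp, 3 in the authors' table and 36 within slide 2, where 1 WT mouse meets 2 Prss54KO mice. Leaving out 1 array in turn gave 3 to 10, since fewer samples overlap less. The share over all probes is given here only for the reported setting, at 7.81%. For the other settings it therefore cannot be judged whether histone probes separated more or less often than all probes. The testis variant median lay between -0.08 and 0.09 with 1 array left out, at 0.09 without Prss54KO replicate 3. With the slide as a fixed block or slide 2 alone, the difference of the printed Hist1h4d probe was 0.38, which rests on 1 WT mouse. Of the 64 tested members, 18 kept their sign in every alternative. Unless stated, the cause was not tested.

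Slides 1 and 3 each hold 1 genotype, so the slide block rests on slide 2. Whether replicate numbers pair the mice is not known. Same-numbered mice deviated from their group means with correlations of -0.044, 0.02 and -0.154, and differently numbered mice with correlations from -0.144 to 0.159. Deviations of 3 mice from their own group mean are too few to decide this. With the replicate block, 1129 of all probes had an unadjusted p under 0.05 in limma, against 926 without it, 0 passed the threshold, and 0 histone probes passed. Of the tested members, 63 were well above background on all 6 arrays and Hist1h1d on 4, 3 WT and 1 Prss54KO.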
